A study of Homo sapiens with 6 samples.

Results

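The D and E cyclins, their kinases and the CIP/KIP inhibitors set the pace at which a cell leaves G1. The 10 genes described here are CCND1, CCND2, CCND3, CCNE1, CCNE2, CDK2, CDK4, CDK6, CDKN1A and CDKN1B. They were picked by symbol for these roles from the 20030 genes in the deposited count table, and all 10 were among the 11994 genes abundant enough to be tested. Results of the same comparison were known when the genes were picked, so their values below are a description and their adjusted p-values are no independent evidence about G1 control.

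RNA was sequenced from cells labelled NCI-H929, an established multiple myeloma line. The comparison is between 3 libraries with knockdown of the RNA-binding protein IGF2BP1 (IGF2BP1-KD) and 3 negative control libraries (IGF2BP1-NC), and no drug treatment or time course is given in the labels. In the study's methods the knockdown came from an shRNA delivered by lentivirus under a U6 promoter, with puromycin selection of a stable line, and which of its shRNA targets these libraries carry is not given in the sources used here. The labels do not say that the replicates were separate cultures, so the p-values measure the spread between these libraries only, which may be technical.

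In G1, D cyclins bind CDK4 or CDK6 and E cyclins bind CDK2, and these kinases phosphorylate the retinoblastoma protein, which releases E2F factors to switch on genes for DNA replication. CDKN1A (p21) and CDKN1B (p27) bind cyclin-kinase complexes, inhibit CDK2, and can also help to assemble the D cyclin complexes. In multiple myeloma, overexpression of a D cyclin is a common feature, and IGF2BP1 is known as a protein that binds mRNA, in part at N6-methyladenosine.

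IGF2BP1-KD libraries held more CCND1 mRNA and less CCND2, CCND3, CCNE1, CDK6 and CDKN1A mRNA than the controls. The change was 1.67-fold upward for CCND1, 3.81-fold downward for CCND2 and 2.91-fold downward for CDKN1A. CCNE2, CDK2, CDK4 and CDKN1B did not pass the test. Thus 1 of the 10 genes rose and 5 fell at an adjusted p under 0.05 (edgeR quasi-likelihood test, Benjamini-Hochberg adjustment over 11994 genes). Of all tested genes 13.7% rose, 14.5% fell and 28.2% were called in either direction. A rise of at least 2-fold was called for 3.06% of tested genes and a fall of that size for 1.67%, and CCND2 and CDKN1A were the members past that size.

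The 6 libraries held 16885449 to 18112179 counts. CPM is counts scaled to a common library total, and the CPM values below also use a TMM scaling factor per library (0.987 to 1.012). By library total alone, 3 counts correspond to 0.166 to 0.178 CPM. Member counts ran from 217 to 6649, so no member was near this floor in either group. The targeted gene IGF2BP1 had an FPKM (counts scaled to gene length and to library total) of 48.1, 43.7 and 49.1 in the controls and 13.5, 12.9 and 12.8 in IGF2BP1-KD, a log2 fold change of -1.85 (SE 0.065). Of 12 plasma cell markers, 3 were above 1 CPM in every library, and CD38, TNFRSF17, IRF4, POU2AF1, TNFRSF13B and CD27 never exceeded 3 counts. SLAMF7, the plasma cell marker that was called, had 4, 5 and 4 counts in the controls and 52, 42 and 181 in IGF2BP1-KD (log2 fold change 4.37, adjusted p = 0.00878, edgeR), and the call was lost without control library 1 (0.0579) or 3 (0.0588). All 13 erythroid markers were above 1 CPM in every library, with summed levels of 8523 to 10410 CPM in the controls and 9433 to 10310 CPM in IGF2BP1-KD. Of these markers 6 fell, 3 of them in every leave-one-out fit, while 14.5% of all tested genes fell. The markers therefore go against a plasma cell label, and the text keeps the name the labels give. The part of the erythroid genes in the results for G1 genes was not tested, and in bulk RNA fewer cells of a type cannot be told apart from less RNA per cell.

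Of 11994 tested genes, 277 in IGF2BP1-NC library 1 were at least 2-fold from the mean of the other 2 controls. The number was 152 for control library 2 and 193 for control library 3. A list of 13 transcripts of the ATF4 and endoplasmic reticulum stress response was drawn up after the data had been seen, so their levels are a description. In control library 1 each was at least 1.5 times the mean of control libraries 2 and 3, with a median ratio of 2.87 and a range of 1.70 to 14.9. In IGF2BP1-KD 1 of the 13, DDIT3, reached that ratio in each library, and the median ratios were 0.946, 1.00 and 0.875. Single transcripts there ran from 0.512 to 2.28. In the fit of all 6 libraries 0 of the 13 were called. Without control library 1, 2 were called higher in IGF2BP1-KD and 3 lower. Summed CPM of the list was 1426 to 4165 in the controls and 1316 to 1485 in IGF2BP1-KD. CCND2 was 1.83 times and CDKN1A 1.95 times the mean of the other controls in control library 1, so their levels, shares, ratios, fold changes and calls are given with and without it, and correlations only with it. Without that library 1 member still rose and 5 still fell, against 32.8% of 12171 tested genes called in either direction.

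**Figure D1:**
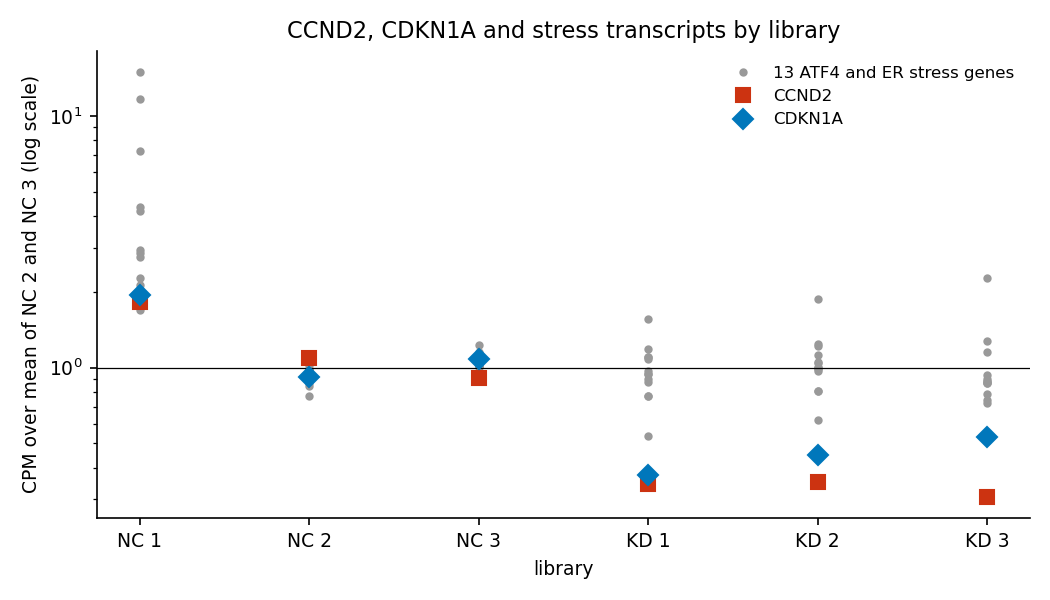
CPM of CCND2 (squares), CDKN1A (diamonds) and 13 stress transcripts (grey points) in each library, divided by the mean of control libraries 2 and 3, on a log axis. All 13 stress transcripts, CCND2 and CDKN1A lie above 1 in control library 1. In the 3 IGF2BP1-KD libraries CCND2 and CDKN1A lie below 0.6, and single stress transcripts lie between 0.512 and 2.28.

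By position in GRCh38, taking a GENCODE release 44 transcript for each gene, CCND1 lies at chr11:69641156-69654474 and CCND2 at chr12:4273762-4305353, both on the plus strand. CCND3 is at chr6:41934952-41941808 on the minus strand, CCNE1 at chr19:29811991-29824312 on the plus strand, and CCNE2 at chr8:94880224-94895201 on the minus strand. CDK2 is at chr12:55966830-55972789 on the plus strand, with CDK4 at chr12:57747727-57752310 and CDK6 at chr7:92604921-92836573, both on the minus strand. CDKN1A occupies chr6:36678714-36687332 and CDKN1B chr12:12717368-12722369, both on the plus strand. An annotated antisense gene overlaps 9 of the 10, CCNE1 being the exception. DINOL lies antisense to CDKN1A, TSPAN31 to CDK4 and CCND2-AS1 to CCND2. The study's methods name a stranded library kit, but the strand setting of the counting is not given in the sources used here. Whether the deposited counts keep the strands apart in these overlaps is therefore not known.

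FPKM allows the genes to be ordered by level, and the order was steep. In the controls CDK4 had the highest mean FPKM, followed by CCND3, CDK2 and CCNE1, and the ranges of these neighbours did not overlap. CDK6, CDKN1A, CDKN1B, CCND2 and CCNE2 followed with overlapping ranges between neighbours, and CCND1 was lowest. Without control library 1 the range of CDK6 was above the others of this group, CDKN1B (mean 12.75) was placed above CDKN1A (12.2), and CCNE2 (8.57) above CCND2 (7.81), with overlap within each of these pairs. In IGF2BP1-KD the first 5 places were the same, CDKN1A dropped to the ninth place and CCND2 to the last. There, only the ranges of CCND1 and CDKN1A overlapped between neighbours in the order.

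**Figure D2:**
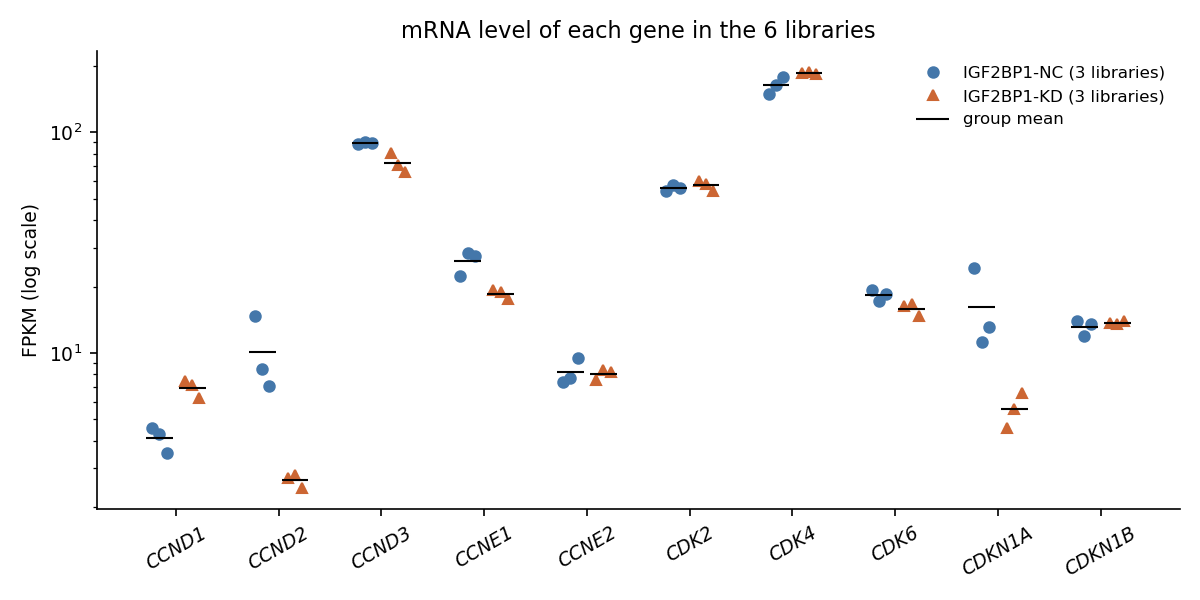
FPKM of the 10 genes in each library on a log axis, with IGF2BP1-NC as circles, IGF2BP1-KD as triangles and the group mean as a short line. CDK4 and CCND3 are the highest in both groups, and CCND2 and CDKN1A show both the widest gap between groups and the widest spread among controls.

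Among the D cyclins, which link growth signals to the cell cycle, CCND3 had the highest level. Its FPKM was 88.2, 89.95 and 88.9 in the controls (89.0 ± 0.898, SD, n = 3) and 80.05, 71.0 and 66.3 in IGF2BP1-KD (72.4 ± 7.0, SD, n = 3), with no overlap. The log2 fold change was -0.31 (SE 0.073, adjusted p = 0.0101, edgeR), and the call was lost at an adjusted p of 0.0502 in the fit without IGF2BP1-KD library 2. The 3 IGF2BP1-KD libraries spread more widely than the controls for CCND3.

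CCND2, a D cyclin that is highly expressed in a share of myelomas, showed the largest fall of the members. Its FPKM was 14.65, 8.50 and 7.12 in the controls (10.1 ± 4.01, SD, n = 3) and 2.73, 2.80 and 2.45 in IGF2BP1-KD (2.66 ± 0.184, SD, n = 3). Every control library was above every IGF2BP1-KD library, and control library 1 held the highest level. The log2 fold change was -1.93 (SE 0.30, 95% confidence interval -2.70 to -1.17, adjusted p = 0.00906, edgeR). Without control library 1 the mean FPKM of the controls was 7.81 and the log2 fold change -1.58 (SE 0.099), a 2.98-fold fall. The call was lost at an adjusted p of 0.0543 in the fit without IGF2BP1-KD library 3.

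CCND1, the D cyclin encoded in the 11q13 region, moved the other way from CCND2 and CCND3. Its FPKM was 4.59, 4.29 and 3.54 in the controls (4.14 ± 0.542, SD, n = 3) and 7.48, 7.14 and 6.24 in IGF2BP1-KD (6.95 ± 0.641, SD, n = 3), again without overlap. The log2 fold change was 0.74 (SE 0.113, 95% confidence interval 0.49 to 0.99, adjusted p = 0.000964, edgeR), and it lay between 0.64 and 0.81 when each library was left out in turn. LTO1 lies antisense to CCND1, and its share of these reads was not tested.

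Summed over the 3 D cyclins, FPKM was 103 ± 3.95 in the controls and 82.0 ± 7.70 in IGF2BP1-KD (SD, n = 3). CCND3 contributed 86.3 ± 3.76% of this sum in the controls and 88.3 ± 0.501% in IGF2BP1-KD. CCND2 contributed 9.69 ± 3.47% and 3.25 ± 0.219%, and CCND1 4.0 ± 0.390% and 8.48 ± 0.300%, in the same order. In control libraries 2 and 3 alone the CCND2 share was 8.27% and 7.15%. The order of the minor D cyclins was thus exchanged: CCND1 over CCND2 was 0.314 to 0.505 in the controls and 2.55 to 2.75 in IGF2BP1-KD, on FPKM. Without control library 1 the controls had ratios of 0.505 and 0.497.

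**Figure D3:**
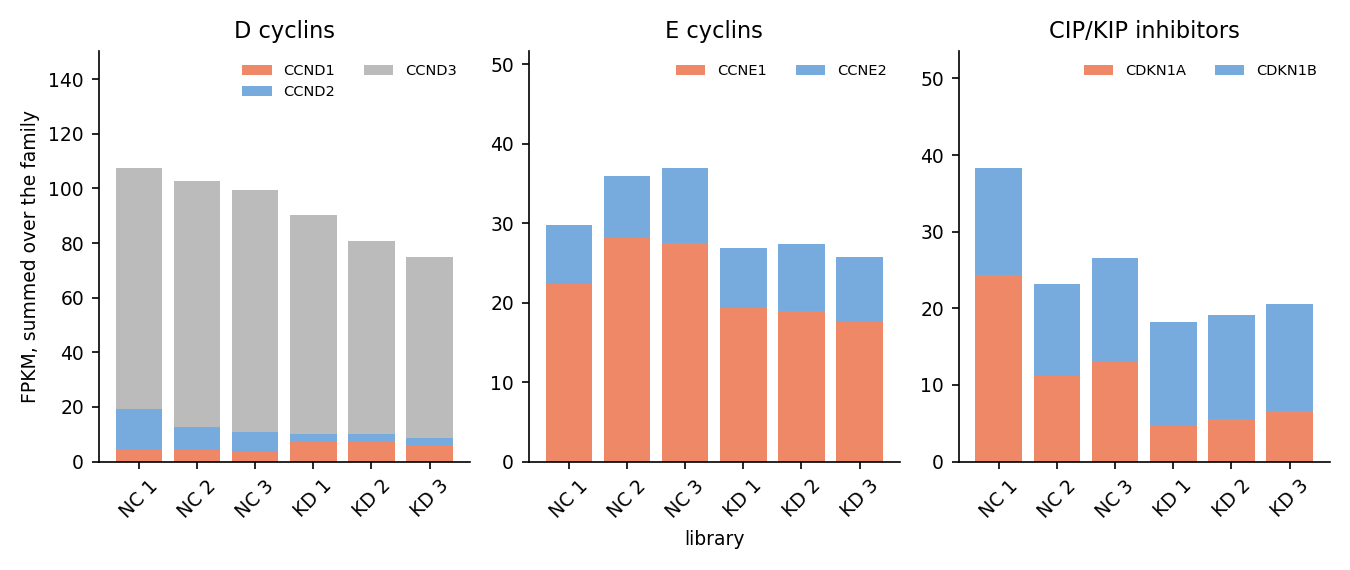
FPKM stacked by gene within the D cyclins, the E cyclins and the CIP/KIP inhibitors CDKN1A and CDKN1B, with 1 bar per library and linear axes starting at 0. The remaining CIP/KIP inhibitor, CDKN1C, is left out of the inhibitor bar. CCND3 fills most of each D cyclin bar, CCND2 is thinner than CCND1 in all 3 IGF2BP1-KD libraries, and CDKN1A takes 25.2 to 32.1% of the inhibitor bar there against 48.3 to 63.5% in the controls.

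Of the E cyclins, which carry the cell from late G1 into S phase with CDK2, CCNE1 fell and CCNE2 did not pass the test. Whether their changes differed from each other was not tested. CCNE1 had an FPKM of 22.4, 28.3 and 27.5 in the controls (26.05 ± 3.21, SD, n = 3) and 19.3, 19.0 and 17.5 in IGF2BP1-KD (18.6 ± 0.959, SD, n = 3). Its groups did not overlap, although control library 1 lay nearer to IGF2BP1-KD than the other controls. The log2 fold change was -0.50 (SE 0.101, 95% confidence interval -0.72 to -0.28, adjusted p = 0.00443, edgeR), it was -0.61 without control library 1, and it was called in all 6 leave-one-out fits. CCNE2 had an FPKM of 8.17 ± 1.12 in the controls and 8.03 ± 0.429 in IGF2BP1-KD (SD, n = 3), with overlapping groups. Its log2 fold change of -0.039 had a 95% confidence interval of -0.27 to 0.19, so a change within these bounds was not excluded.

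The start of the CCNE1 promoter is shown because CCNE1 was the E cyclin that fell, and for its GC boxes, the GGGCGG motif bound by factors of the Sp1 family. The 250 bases before the RefSeq start (GRCh38.p14, plus strand, chr19:29811741-29811990) hold 7 GC boxes on either strand, in capitals.
CCNE1 promoter: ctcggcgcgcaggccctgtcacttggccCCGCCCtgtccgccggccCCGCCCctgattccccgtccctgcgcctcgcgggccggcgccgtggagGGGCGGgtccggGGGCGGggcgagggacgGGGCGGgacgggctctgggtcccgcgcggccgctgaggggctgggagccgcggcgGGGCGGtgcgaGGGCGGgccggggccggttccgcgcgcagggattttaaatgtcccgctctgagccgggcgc
Of all 35116 RefSeq promoter windows of this length, 42.6% held at least 1 GC box, and the number of boxes per window was not compared.

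Among the kinases, CDK4 and CDK6 partner the D cyclins and CDK2 partners the E cyclins. CDK4 had the highest level of the 10 genes, with an FPKM of 149, 164 and 177 in the controls (163.5 ± 14.1, SD, n = 3) and 186, 188 and 183 in IGF2BP1-KD (185.6 ± 2.41, SD, n = 3). Its groups did not overlap, but the log2 fold change of 0.17 (SE 0.073, 95% confidence interval 0.01 to 0.33) had an adjusted p of 0.103 (edgeR). It passed at 0.0479 with upper-quartile scaling and at 0.0375 without control library 3. Control library 1 was the lowest of the 6, and without it the log2 fold change was 0.099 (adjusted p = 0.182).

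The CDK4 window is shown for its E-boxes, the CACGTG motif bound by MYC and related factors, of which it holds 3 (in capitals; the 3 GC boxes here are left in lower case). It covers chr12:57752311-57752560 on the minus strand of GRCh38.p14, and 6.34% of all windows hold an E-box.
CDK4 promoter: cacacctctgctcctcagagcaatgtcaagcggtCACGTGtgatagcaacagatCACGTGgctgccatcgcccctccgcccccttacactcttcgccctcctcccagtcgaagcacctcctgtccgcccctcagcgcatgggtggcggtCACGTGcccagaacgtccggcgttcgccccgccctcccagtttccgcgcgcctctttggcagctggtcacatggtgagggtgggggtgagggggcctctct
A match is a description of the letters and not evidence that a factor is bound.

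CDK6, which pairs with the same D cyclins, had an FPKM of 19.3, 17.25 and 18.5 in the controls (18.4 ± 1.03, SD, n = 3) and 16.4, 16.6 and 14.75 in IGF2BP1-KD (15.9 ± 1.00, SD, n = 3). The ranges did not overlap, with a log2 fold change of -0.22 (SE 0.067, 95% confidence interval -0.36 to -0.07, adjusted p = 0.0310, edgeR). The call was among the weakest, as 7 of 15 alternatives lost it. Among these were the fits without control library 3 (adjusted p = 0.0827, edgeR) and without IGF2BP1-KD library 1 (0.0627), 2 (0.0582) or 3 (0.122). CDK4 over CDK6, on FPKM, was 7.74 to 9.57 in the controls and 11.3 to 12.4 in IGF2BP1-KD. CDK2 had an FPKM of 56.0 ± 1.89 in the controls and 57.6 ± 3.12 in IGF2BP1-KD (SD, n = 3), and its log2 fold change of 0.028 had a 95% confidence interval of -0.12 to 0.17.

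Of the inhibitors, CDKN1A fell and CDKN1B did not pass the test. CDKN1A, a p53 target that also responds to other signals, had an FPKM of 24.3, 11.2 and 13.1 in the controls (16.2 ± 7.08, SD, n = 3) and 4.60, 5.57 and 6.60 in IGF2BP1-KD (5.59 ± 0.999, SD, n = 3). The groups did not overlap, and control library 1 was the highest of the 6. The log2 fold change was -1.54 (SE 0.35, 95% confidence interval -2.43 to -0.65, adjusted p = 0.0292, edgeR). Without control library 1 the mean FPKM of the controls was 12.2 and the log2 fold change -1.14 (SE 0.135, adjusted p = 0.000124, edgeR), a 2.21-fold fall with a far smaller error. The call was lost in 6 of 15 alternatives, among them the fits without control library 3 (adjusted p = 0.0567, edgeR) and without IGF2BP1-KD library 1 (0.0917), 2 (0.0955) or 3 (0.0861).

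The CDKN1A window is shown for its 4 GC boxes, in capitals, of which the last pair share 1 base. It covers chr6:36678464-36678713 on the plus strand of GRCh38.p14.
CDKN1A promoter: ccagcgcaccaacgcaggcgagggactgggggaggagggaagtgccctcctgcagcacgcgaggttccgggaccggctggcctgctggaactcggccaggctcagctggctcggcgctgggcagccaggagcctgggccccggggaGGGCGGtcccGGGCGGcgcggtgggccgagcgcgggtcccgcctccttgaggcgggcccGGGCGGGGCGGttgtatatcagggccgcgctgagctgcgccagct
RefSeq windows were matched for 6 of the 10 genes, all but CCND1, CCND2, CCNE2 and CDK2. Each of the 6 held a GC box in at least 1 window, among them CDK4 and CDKN1B, which were not called. The 9 windows of these 6 genes were searched on both strands for motifs of other factors, and a match was found in none of them for the motifs that follow. The core promoter motif TATAAA was present in 10.7% of all windows and the cyclic AMP response element TGACGTCA in 1.65%. The AP-1 site TGANTCA was present in 6.57% of all windows. The C/EBP-ATF element TGATGNAA occurred in 3.14% of all windows, and AGATAA, a motif of the erythroid GATA factors, in 9.17%. None held TTTCGCGC, TTTGGCGC, TTTCCCGC or TTTGCCGC, the forms of an E2F site searched here, of which 2.79% of all windows held at least 1.

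CDKN1B had an FPKM of 14.0, 12.0 and 13.5 in the controls (13.2 ± 1.05, SD, n = 3) and 13.6, 13.6 and 13.9 in IGF2BP1-KD (13.7 ± 0.194, SD, n = 3). Its groups overlapped, and the log2 fold change of 0.048 had a 95% confidence interval of -0.13 to 0.22 (adjusted p = 0.693, edgeR). CDKN1A over CDKN1B therefore went from 0.935 to 1.74 in the controls to 0.338 to 0.474 in IGF2BP1-KD, on FPKM. CDKN1A made up 53.7 ± 8.51% of the summed FPKM of this pair in the controls and 28.8 ± 3.46% in IGF2BP1-KD (SD, n = 3). In control libraries 2 and 3 alone its share was 48.3% and 49.2% and its ratio to CDKN1B 0.935 and 0.969.

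**Figure D4:**
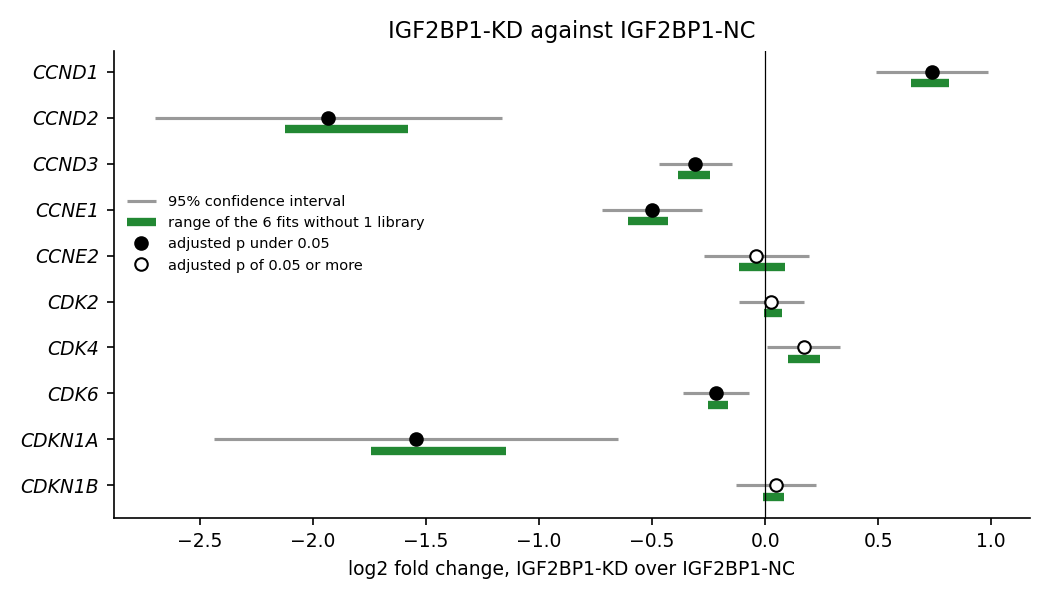
Log2 fold change of each gene in IGF2BP1-KD over IGF2BP1-NC, with its 95% confidence interval in grey and, below it in green, the range of the 6 leave-one-out fits. Filled points passed an adjusted p under 0.05 in the fit of all 6 libraries, CCND1 to the right of 0 and CCND2, CCND3, CCNE1, CDK6 and CDKN1A to the left, and the intervals of CCNE2, CDK2 and CDKN1B cross 0.

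In all, 7 of the 10 genes had groups that did not overlap in CPM, 2 higher and 5 lower in IGF2BP1-KD. Over all tested genes 45.6% did not overlap, 22.4% higher and 23.2% lower. The median log2 fold change of the 10 genes was -0.13, against -0.0048 over all tested genes.

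The 3′ UTRs were searched for GGACT, a form of the N6-methyladenosine consensus, because IGF2BP1 is described as a reader of this mark. It was present in 8 of the 10 genes, CCND3 and CDKN1B being without it, and in 61.8% of 11490 tested genes with a 3′ UTR. CCND2 held 5, CCND1, CCNE2, CDK6 and CDKN1A held 2 each, and CCNE1, CDK2 and CDK4 held 1 each. No methylation or binding was measured in these libraries.

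Windows of 23 bases around GGACT, in capitals, are shown for CCNE1, CDK6 and CDKN1A. All of them fell, and they are the called genes with both a RefSeq promoter window and the motif. The position of the motif is counted from 1 at the first base of the 3′ UTR. The 5 windows of CCND2, which fell the most, are not shown. Those of CCND1, which rose, and of CCNE2, CDK2 and CDK4, which were not called, are also left out.
CCNE1 position 278: tgacctaagGGACTcccacaaca
CDK6 position 4823: agtagaagtGGACTtccttcaac
CDK6 position 7705: taaagtaaaGGACTttgtagttg
CDKN1A position 898: cagctcaatGGACTggaagggga
CDKN1A position 1364: tactggcctGGACTgttttctct
Over the tested genes with the motif, the median log2 fold change was -0.0053, against -0.0059 over all tested genes with a 3′ UTR. The 3′ UTR of CDK6 was 10219 bases, above 99.0% of tested genes, and that of CCND2 was 5344 bases, above 93.5%.

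Other genes that act on the same kinases were taken from lists, which were drawn up with earlier results known. For comparison with the counts of each list, 13.7% of all tested genes rose, 14.5% fell and 28.2% were called in either direction. In the list of INK4 proteins and other CDK inhibitors, 4 of 6 genes were tested, 0 rose and 1 fell, and the median log2 fold change was 0.015. The gene that fell was CDKN1C (p57), the remaining CIP/KIP inhibitor, with an FPKM of 9.74, 12.8 and 10.9 in the controls and 3.83, 3.19 and 4.20 in IGF2BP1-KD. Its log2 fold change was -1.58 (SE 0.145, adjusted p = 5.17e-05, edgeR), without overlap. CDKN2B, an INK4 inhibitor of CDK4 and CDK6, never exceeded 3 counts in a library and was not tested, and CDKN2A had at most 5.

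Among 19 genes of the pocket proteins, E2F and DREAM complexes, 4 rose and 3 fell, with a median log2 fold change of -0.02. Of all tested genes 28.2% were called in either direction. E2F4, a repressive E2F, rose by a log2 fold change of 0.28, TFDP1, an E2F partner, by 0.26, and RB1, the retinoblastoma protein, by 0.25. E2F5 fell by 0.89 on the log2 scale, TFDP2 by 0.66 and the activator E2F3 by 0.19. TFDP2 and E2F5 were called in all 6 leave-one-out fits, E2F4 and TFDP1 in 4, RB1 and E2F3 in 2 and LIN54, the remaining gene that rose, in 1.

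In the pocket protein list 0 to 4 genes rose and 2 to 3 fell over the leave-one-out fits. E2F4 and TFDP1 were lost without IGF2BP1-KD library 1 (adjusted p = 0.0694 and 0.055, edgeR) or 2 (0.0879 and 0.0685), and RB1 and E2F3 reached an adjusted p of up to 0.165 and 0.167. Of 20 genes of kinase activation and ubiquitin control 1 rose and 4 fell, against 28.2% of all tested genes called in either direction. The gene that rose was CDK7 of the CDK-activating kinase, with a log2 fold change of 0.35. SKP2, the F-box protein that targets CDKN1B, fell by 0.28 on the log2 scale, USP28, a deubiquitinase, by 0.28 and CUL1, the scaffold of the SCF ligases, by 0.22. CDK7 and SKP2 were called in all 6 leave-one-out fits, whereas CUL1 was called only without control library 1, USP28 only without IGF2BP1-KD library 3, and CDC25A, the other gene that fell, in 1 fit. The number of genes of this list that fell was 1 to 5 over these fits.

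Genes of later phases and E2F target genes, which act downstream of the G1 kinases, were listed separately. Of 6 tested genes in the list of other cyclins and CDKs, 3 rose and 0 fell, with a median log2 fold change of 0.28. Of all tested genes 13.7% rose and 14.5% fell. CCNB1, the cyclin of mitotic entry, rose by a log2 fold change of 0.54, CCNF by 0.32 and CCNA2, the S phase cyclin, by 0.24, while CCNA1 had 0 counts in all libraries. CCNB1 was called in all 6 leave-one-out fits, CCNA2 was lost without IGF2BP1-KD library 2 (adjusted p = 0.0544, edgeR), and CCNF without library 1 (0.0547) or 2 (0.0513) of that group. Of 25 genes listed as E2F targets, 0 rose and 8 fell, with a median log2 fold change of -0.096, beside the same shares over all tested genes. The list is a selection without cyclins, so CCNA2, which rose, and CCNE1, which fell, are not in these counts. CHAF1B, a chromatin assembly factor subunit, fell by 0.43 on the log2 scale, POLD1, a DNA polymerase subunit, by 0.41 and CDC45, part of the replicative helicase, by 0.37. Of the 8 genes that fell 6 were called in all 6 leave-one-out fits, these 3 among them, and 6 to 10 genes of the list fell in each.

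Of the 18 tested genes among 20 p53 targets, the genes that share a known activator with CDKN1A, 3 rose and 2 fell, with a median log2 fold change of -0.20. TP53I3 rose by a log2 fold change of 1.42, TP53INP1 by 0.99 and DDB2, a DNA damage sensor, by 0.43, whereas ZMAT3 fell by 0.85 and CCNG1 by 0.32 on the log2 scale. FAS, a death receptor, never exceeded 3 counts. Without control library 1 the list had 4 genes that rose and 6 that fell, with a median log2 fold change of 0.0046. Of all tested genes 28.2% were called in either direction with that library and 32.8% without it. Among the 6 leave-one-out fits, DDB2 was called only in that without control library 1, and the other 4 called genes in all 6. SESN2 is in both the p53 and the stress lists.

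**Figure D5:**
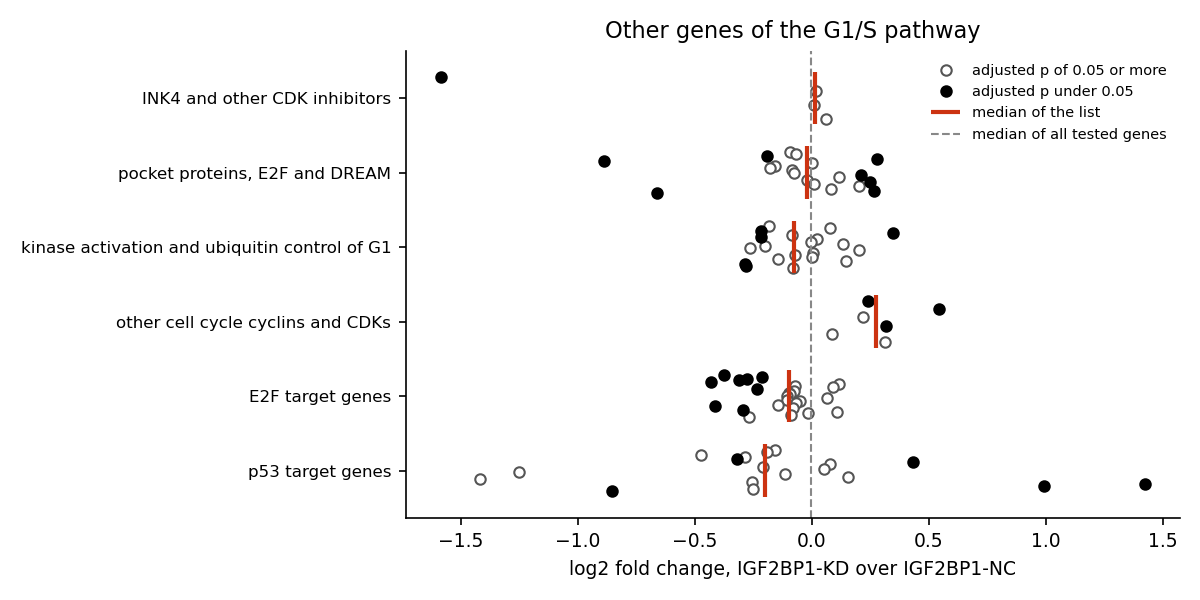
Log2 fold change (IGF2BP1-KD over IGF2BP1-NC) of every tested gene in 6 lists around G1, with filled points for an adjusted p under 0.05, a red line at each list's median and a dashed line at the median of all tested genes. Of the lists shown, other cyclins and CDKs lie to the right and E2F targets mainly to the left, and CDKN1C is the leftmost point of its list.

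The genes most like CCND2 over the 6 libraries, by Pearson r of log2 CPM among 9283 genes whose mean log2 CPM reached 3, were VAPA (0.997), RAB31 (0.997), CISH (0.996), TNKS1BP1 (0.996) and RGS10 (0.996). Those most like CDKN1A were KIZ (0.996), PHTF2 (0.995), DAB2 (0.993), CCDC115 (0.992) and DCHS2 (0.991). CCND2 and CDKN1A themselves had an r of 0.956. The 6 points share 2 groups and the high control library 1, so these are descriptions of libraries.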

How the data were processed

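The labels put 3 libraries in IGF2BP1-KD and 3 in IGF2BP1-NC, all of RNA from NCI-H929. The authors trimmed reads with Trimmomatic, mapped them with HISAT2 to GRCh38 and counted with HTSeq-count, and the deposited counts are raw whole numbers. Per the authors, the FPKM values come from Cufflinks, yet each equals count divided by gene length and library total, to within 2.5e-07% over 9309 genes, and 27 symbols read as dates there were matched by row order. Tool versions, counting strand and annotation release are not given in the sources used here.

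Counts were tested with edgeR 4.0.16 (R 4.3.3; TMM, filterByExpr, robust glmQLFit, glmQLFTest, two-sided), 11994 of 20030 genes passing the filter, with Benjamini-Hochberg adjustment. Alternatives were DESeq2 1.42.0, limma 3.58.1, other scalings and filters, the replicate number as a block, and leaving out each library. Leaving out libraries for the lists, the level order and the overlap of groups was added after the data had been seen. On simulated counts with 200 genes changed by 1.5 log2 units, edgeR recovered 200 and made 5 false calls among 12011 tested genes, and smaller changes were not simulated. The members and lists were chosen with earlier results of these data known. Named genes are the members, IGF2BP1, up to 3 called genes per direction from each list, list genes that never exceeded 3 counts, and for CCND2 and CDKN1A the 5 most correlated genes. CDKN2A, SESN2, DDIT3, SLAMF7, LIN54 and CDC25A were named after their values had been seen. Promoter windows came from RefSeq (GRCh38.p14) and 3′ UTRs from GENCODE release 44, and figures were drawn with matplotlib 3.10.9.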

Additional observations from a re-analysis of the deposited data

How the results depend on the processing

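Of 75 recomputed summary values (counts of genes or members called, and IGF2BP1), 67 kept their direction and call or stayed within 1.5 times their value. Members called lower numbered 5 and became 3 with the replicate block, and 2 to 5 over the leave-one-out fits. Members called higher numbered 1 and became 2 with upper-quartile scaling (CDK4) and 1 to 2 over these fits, and genes called lower ranged from 1146 to 2062. Log2 fold changes changed sign in genes that were not called: CCNE2 (range -0.12 to 0.089 over leave-one-out fits) at 0.089 without control library 3 and 0.0049 without IGF2BP1-KD library 1, CDK2 (-0.0069 to 0.073) at -0.0069 without control library 1 and -0.0067 without IGF2BP1-KD library 1, and CDKN1B (-0.0088 to 0.082) at -0.0088 without control library 2. The cause was not tested.

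The labels do not say whether the replicate numbers pair the libraries. Deviations from the group means correlated at -0.052, 0.036 and -0.106 across genes between libraries of the same number. Between libraries of different numbers the range was -0.067 to 0.095. Such deviations sum to 0 within each group, so these values cannot settle whether the libraries are paired. With the block, CDKN1A (adjusted p = 0.0812, edgeR) and CDK6 (0.0538) missed the threshold and 1413 genes rose and 1500 fell. Member counts were 217 to 6649 with 3 libraries per group, the errors were largest for CCND2 and CDKN1A (SE 0.30 and 0.35), and counting error was not separated from the spread between libraries.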
